A study of Mus musculus with 2 samples.

Results

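The T cell receptor (TCR) complex and signaling genes described here were 10 genes: the invariant receptor chains Cd3d, Cd3e and Cd3g, the kinases Lck and Zap70, the coreceptors Cd4 and Cd8a, the adhesion receptor Cd2, the costimulatory receptor Icos and the cytokine receptor chain Il7r. They were chosen by name, with their differences between the arrays already known, so every value of the 10 genes is a description and carries no test. They made up 10 of the 34639 gene names on the array, and 8 of the 10 had a signal well above background, compared with 26506 of all names on at least 1 array. A gene chip of 60-base DNA features was hybridised with RNA of long-term hematopoietic stem cells (LT-HSCs), the rare bone marrow cells that maintain all blood lineages. The cells were sorted from the femur and tibia of 2-year-old C57BL/6J-background mice as CD150+ CD48- CD34- Flt3- cells of the lineage-negative, Sca-1+, c-Kit+ fraction per the labels, to which the study's methods add CD41-.

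One array held LT-HSCs of p38αΔ/Δ mice. These were CAG-CreERT2:p38α flox/flox animals injected with tamoxifen at about 1 year of age (50 to 60 weeks) and analysed 1 year later. The other array held LT-HSCs of age-matched controls, named p38α+/+ here. The controls carried the same floxed alleles but no Cre and received tamoxifen as well, so the floxed alleles and the drug were common to both arrays. The CAG promoter drives the recombinase in nearly all tissues, and the deletion was therefore not limited to LT-HSCs. There was 1 array per group and the number of mice behind each was not given in the sources used here. No difference between the groups could be tested, and mouse-to-mouse variation is unknown.

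p38α is encoded by Mapk14, and its signal was compared first. One Mapk14 feature read 2.34 in p38α+/+ LT-HSCs and 2.31 on the other, and the second read 2.08 and 2.03, all as log2 signal relative to the 75th percentile of the array. The log2 differences of the gene meant to be deleted were -0.04 and -0.05. Whether these features lie inside the deleted part is not given, so they check the label only if they do. For this reason the array is called the array labelled p38αΔ/Δ below, and every direction rests on that label. The signal exceeded background on 67.9% of features in p38α+/+ LT-HSCs and 69.0% on the array labelled p38αΔ/Δ, and no spot was saturated.

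As background, a T cell recognises peptide on an MHC molecule through its TCR chains, which do not signal themselves. The CD3 chains carry activation motifs (ITAMs), in which the kinase LCK, brought in by CD4 or CD8, phosphorylates tyrosines. ZAP70 docks on these phosphorylated motifs and passes the signal to adaptor proteins. CD2 and ICOS adjust the response, and IL7R supports survival of T cells and early lymphoid cells. LT-HSCs do not carry a rearranged TCR. The lineage antibodies of this sort recognised myeloid cells (Gr-1, Mac-1), erythroid cells (TER-119), B cells (B220) and the T cell coreceptors CD4 and CD8, so that cells bearing these proteins were gated out. There was no CD3 antibody among them. In a bulk sample, fewer cells of a type and less RNA per cell cannot be told apart.

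The 10 genes were represented by 15 features. Cd2, Cd4, Cd8a, Icos and Zap70 had a pair each and the other 5 genes had 1. A total of 10 features were well above background on both arrays, 5 on neither and none on only 1 array. Positions are from the annotation of the array (mouse build mm9), which does not say whether a feature is coding or untranslated, and a start is the position in the transcript. The sequences that follow are those on which the largest differences and the largest disagreement rest. Capitals mark the AATAAA letters where present, and, in Cd3d, the tyrosine codons of its ITAM. Features shown in part are given by 30 of their 60 bases.
Zap70, start 1939, chr1:36839315-36839374, plus strand: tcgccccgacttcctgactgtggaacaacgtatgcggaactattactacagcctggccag
Zap70, start 2166, chr1:36839542-36839601, plus strand, bases 1 to 30: aacatcaccagtgggctgagaggatgtgtg
Icos, start 1192, chr1:61055103-61055162, plus strand, bases 1 to 30: tagaaccaacatgctctcttccaattccta
Icos, start 3194, chr1:61057105-61057164, plus strand, bases 23 to 52: tgctcctgaacagccAATAAAtatgctttg
Cd2, start 627, chr3:101083802-101086981, minus strand: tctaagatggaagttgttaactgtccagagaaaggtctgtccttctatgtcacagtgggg
Cd2, start 1084, chr3:101079831-101079890, minus strand, bases 19 to 48: gagttcgtcatttccAATAAAaagctgtgt
Cd3d, start 537, chr9:44794171-44794402, plus strand: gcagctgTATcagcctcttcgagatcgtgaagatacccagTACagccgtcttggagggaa

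The Zap70 features lie 227 bases apart in both transcript and genome, and the Icos features 2002 bases apart in both, so no intron separates either pair. The first Cd2 feature spans 3180 bases of the genome with its 60 bases, and the Cd3d feature 232, so each crosses an exon junction. AATAAA, the usual letters of a polyadenylation signal, occurred in 5 of the 15 features, on the strand shown (Cd2, Cd3e, Cd4, Icos and Lck), compared with 10.1% of all 55681 features. Its reverse complement TTTATT occurred in none of the 15 and in 3.74% of all features. An ITAM-like spacing of tyrosine codons, in any of the reading frames, was found in 72 of all features (0.129%), among them the Cd3d feature.

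Taking the brightest feature of each gene, 2 of the 8 measured genes were lower by 2-fold or more on the array labelled p38αΔ/Δ (Zap70 and Cd2), against a background of 6.36% of all genes. Another 2 were higher by that much (Icos and Cd3e), against 5.51% of all genes. The other 4, Cd4, Cd8a, Lck and Il7r, differed by less than 2-fold, each with a higher value on that array, for Il7r by less than the scanner error. The median log2 difference of the 8 genes was 0.59, compared with 0.02 for all 26506 genes, whose middle range between quartiles ran from -0.34 to 0.40. The 8 genes thus did not differ in 1 direction. Since the genes were chosen with these values in view, nothing is read from the counts.

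**Figure D1:**
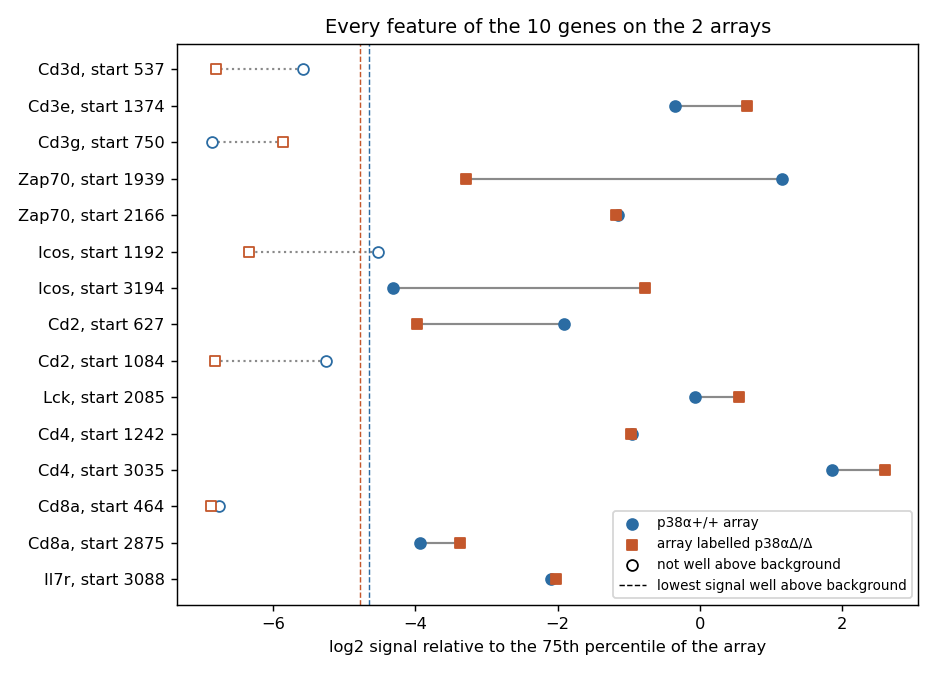
Log2 signal relative to the 75th percentile of the array for each of the 15 features, on the p38α+/+ array (circles) and the array labelled p38αΔ/Δ (squares); open symbols were not well above background, and dashed lines mark the lowest signal well above background on each array. The long lines belong to Zap70 (1.15 against -3.28), Icos (-4.31 against -0.77) and Cd2 (-1.91 against -3.98), and the other feature of each of these genes shows no such difference or was too dim.

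Zap70 encodes the kinase that docks on phosphorylated CD3 chains. At the feature starting at 1939, the processed signal was 318 in p38α+/+ LT-HSCs and 11.8 on the array labelled p38αΔ/Δ. Scaled to each array, this was 1.15 and -3.28, a log2 difference of -4.43 (21.6-fold lower, scanner error of the difference 0.24). At the feature starting at 2166, the signal was 64.6 and 50.7, or -1.15 and -1.18 after scaling, a log2 difference of -0.03 (scanner error 0.21). The features of the same transcript therefore gave a large difference and almost none. Zap70 counts as lower here because the first feature was, by mean level, slightly the brighter, and would not with the second. Which of them tracks the Zap70 transcript was not tested. Spots around the first feature had a median difference of -0.10 (218 spots), and the spot carried no outlier flag on either array. Only 8 of the 35798 features well above background on both arrays had a difference as low. With the background modelled over all spots (normexp) instead of subtracted, the difference was -2.13.

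Disagreement of this size between features was rare on these arrays. Among 7158 genes with at least 2 features well above background on both arrays, the range between the lowest and highest log2 difference had a median of 0.57 and reached at least 1 in 25.3% of genes. Zap70 had a range of 4.40, which 6 genes reached or passed, Zap70 included. Cd4 had a range of 0.75, which 37.8% of the genes reached or passed.

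**Figure D2:**
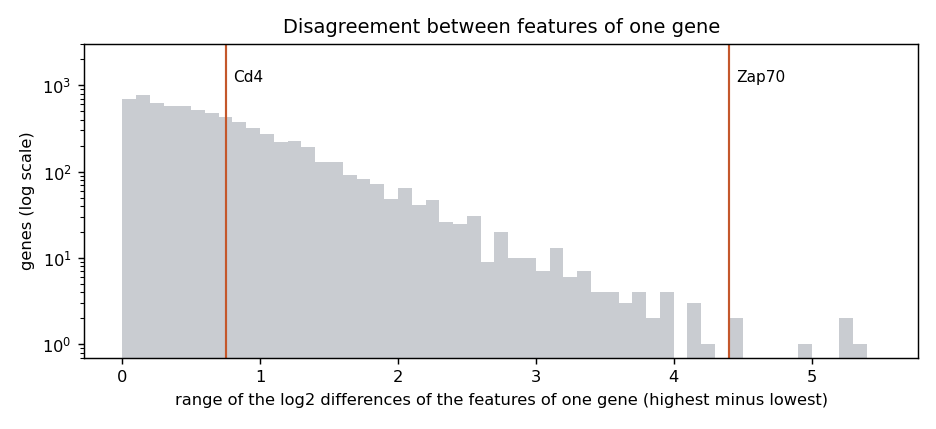
Range of log2 differences between the features of one gene (x axis) for 7158 genes with at least 2 features well above background on both arrays, with the number of genes on a log scale (y axis). Zap70 lies far to the right at 4.40, whereas Cd4 lies within the bulk at 0.75.

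Lck encodes the kinase that acts before ZAP70. Its only feature read 137 in p38α+/+ LT-HSCs and 169 on the array labelled p38αΔ/Δ. After scaling these were -0.07 and 0.55, a log2 difference of 0.62 (scanner error 0.20). Lck was therefore higher on the array on which the low Zap70 feature was found.

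Among the CD3 chains, only Cd3e was measurable. Its signal was 112 in p38α+/+ LT-HSCs and 182 on the array labelled p38αΔ/Δ, or -0.35 and 0.66 after scaling. The log2 difference of 1.02 (scanner error 0.20) lies just past the 2-fold limit, and was 0.73 with normexp. Cd3d gave signals of 3.01 and 1.04, and Cd3g 1.23 and 1.98, none well above background, so no fold is given. A signal for Cd3e was thus not matched by measurable Cd3d or Cd3g on either array.

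The coreceptor genes Cd4 and Cd8a each had 1 feature printed 10 times per array, which allowed the spots themselves to be compared. Repeated spots show the error of printing and scanning and are not biological replicates. For Cd4, start 1242, spots ranged from 65.4 to 80.8 (median 74.6) in p38α+/+ LT-HSCs and from 52.4 to 67.0 (median 58.8) on the array labelled p38αΔ/Δ. After scaling, the means were -0.96 ± 0.11 and -0.97 ± 0.10 (SD, 10 spots each), and the spots overlapped. At the other Cd4 feature, start 3035, the signal was 519 and 697, or 1.86 and 2.60 after scaling, a log2 difference of 0.74 (scanner error 0.20).

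For Cd8a, start 2875, spots ranged from 7.87 to 10.6 (median 9.33, 9 spots) in p38α+/+ LT-HSCs and from 9.76 to 12.8 (median 10.9, 10 spots) on the other. After scaling, the means were -3.93 ± 0.15 and -3.37 ± 0.13 (SD), a difference of 0.57. The scaled spots did not overlap, although the unscaled ranges did and the signal stood close to background on both arrays. With normexp, the difference was 0.24. The other Cd8a feature, start 464, read 1.32 and 0.98, too dim to be measured on either.

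Cd2 encodes an adhesion receptor of T and NK cells that binds CD48 in the mouse. Its feature starting at 627 was also printed 10 times. Spots ranged from 34.2 to 43.9 (median 38.3, 10 spots) in p38α+/+ LT-HSCs and from 4.67 to 8.99 (median 8.37, 9 spots) on the array labelled p38αΔ/Δ, where 1 spot was left out for its outlier flag. The scaled means were -1.91 ± 0.12 and -3.98 ± 0.32 (SD), a log2 difference of -2.07, or 4.20-fold lower, and no spot overlapped. A total of 212 of 35798 features (0.592%) were as low. With normexp, the difference was -0.38 and no longer 2-fold. The other Cd2 feature, start 1084, read 3.77 and 1.02, not well above background on either array.

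**Figure D3:**
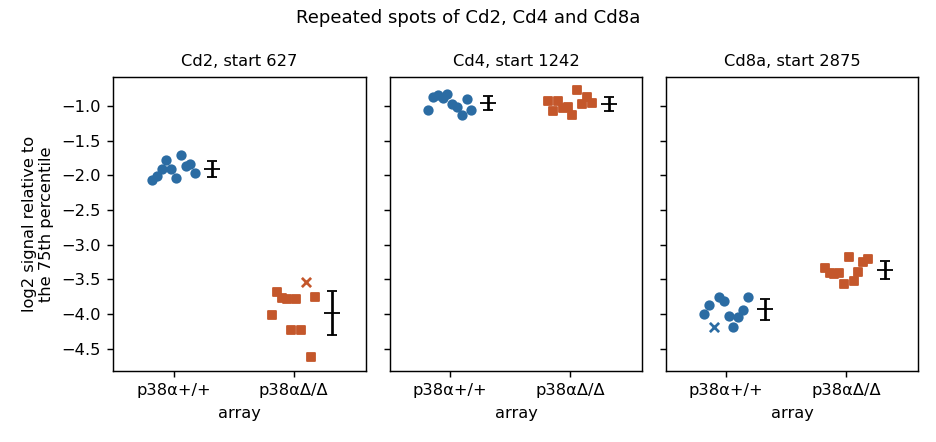
Scaled log2 signal of each repeated spot of Cd2, Cd4 and Cd8a on the 2 arrays; bars give mean ± SD over spots and crosses are spots left out for an outlier flag. The Cd2 spots are all lower on the array labelled p38αΔ/Δ (mean -3.98 against -1.91), the Cd4 spots overlap, and the Cd8a spots are higher by 0.57.

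Icos encodes a costimulatory receptor of activated T cells. At the feature starting at 3194, the signal was 7.22 in p38α+/+ LT-HSCs and 67.3 on the array labelled p38αΔ/Δ, or -4.31 and -0.77 after scaling. The log2 difference was 3.54 (11.6-fold higher, scanner error 0.33), and 27 of 35798 features were as high. With normexp, it was 1.22. The p38α+/+ value was the dimmest of the 10 genes that counted as well above background on that array. The brightest that did not was the other Icos feature, start 1192, at 6.24. That feature read 1.43 on the array labelled p38αΔ/Δ and gave no fold. Higher Icos signal was therefore seen at 1 of the pair. On the array labelled p38αΔ/Δ, the dimmest measured feature was Cd2 at 7.29 and the brightest below background was Cd3g at 1.98.

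Il7r encodes the receptor chain for interleukin 7. Its signal was 33.7 and 28.4, or -2.09 and -2.02 after scaling, a log2 difference of 0.07 (scanner error 0.22). It was among the features with the smallest differences of the 10 genes.

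**Figure D4:**
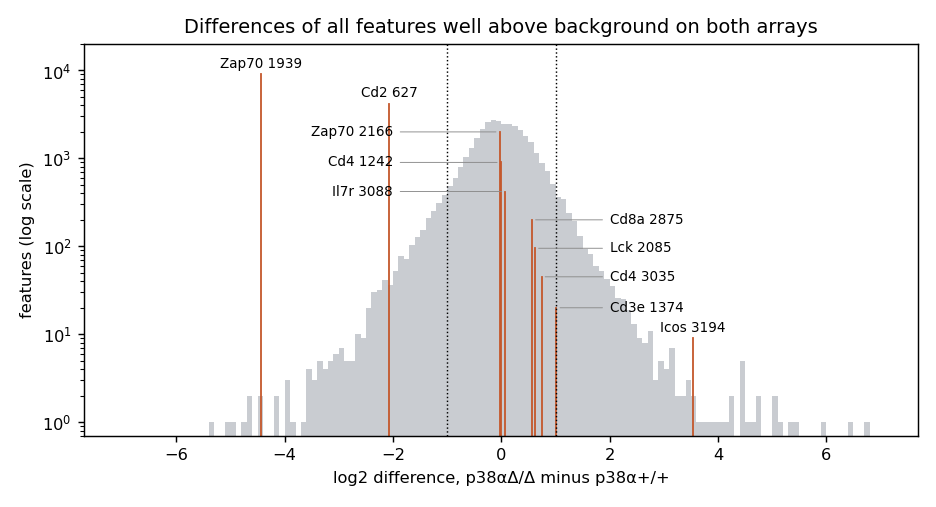
Histogram of the log2 difference (p38αΔ/Δ minus p38α+/+) for all 35798 features well above background on both arrays, with the count of features on a log scale; lines mark the 10 features of the TCR genes, labelled by transcript start, with arbitrary heights, and dotted lines mark 2-fold. Zap70 1939 (-4.43), Cd2 627 (-2.07) and Icos 3194 (3.54) fall in the sparse tails, and the other 7 fall between -0.03 and 1.02.

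The other genes of the pathway were read from 6 lists, of which 128 genes were not among the 10. A total of 115 were on the array and 105 had a signal above background on 1 array or both. Of these, 5 were lower and 11 higher by 2-fold or more on the array labelled p38αΔ/Δ (4.76% and 10.5%, against 6.36% and 5.51% of all genes), with a median log2 difference of 0.10, against 0.02 for all genes. The shares of 6.36% and 5.51% apply to each list below. Of the 105, 7 entered only through the array labelled p38αΔ/Δ and 4 only through the other, each where it was high. Among the 94 measured on both arrays, 3 were lower and 7 higher, against 4.62% and 4.50% of all genes so filtered.

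Receptor chains were the list with least coverage, since 5 of 16 were on the array. Cd247, the zeta chain that bears most of the ITAMs, read 1.79 and 1.53, a log2 difference of -0.26. Tcra differed by -0.17, Tcrb-J by -0.09 and Ptcra, the pre-TCR alpha chain, by 0.63. None of the 4 measured chains reached 2-fold.

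Of 27 measured genes of proximal signaling, none was 2-fold lower and 2 were 2-fold higher. Themis, a signaling protein of thymocytes, was well above background only on the array labelled p38αΔ/Δ and was at least 6.09-fold higher there, against the lowest signal well above background. Grap2, an adaptor, differed by 1.02, the adaptors Lcp2 (SLP-76) by -0.83 and Grb2 by -0.77, Fyb by -0.54 and Rhoh by 0.45. A dimmer Lcp2 feature went the other way, at 1.01. The median of this list was -0.05, and Lat, the main substrate of ZAP70, differed by -0.08.

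Among 18 negative regulators, Csk was more than 2-fold lower and Sit1, measured only on the array labelled p38αΔ/Δ, at least 2.00-fold higher. Csk, the kinase that restrains LCK, read 2.67 in p38α+/+ LT-HSCs and 1.14 on the other, a log2 difference of -1.53. Ptpn6 (SHP-1) differed by -0.75 and Cblb by -0.48, whereas Lax1 differed by 0.83, Pag1 by 0.50 and Dgkz by 0.30. The median was 0.00.

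Coreceptors and costimulatory genes had the highest median of the 6 lists, 0.39, with 1 of 21 genes 2-fold lower and 4 higher (6.36% and 5.51% of all genes). Of the 21, 15 were measured on both arrays, 4 only on the array labelled p38αΔ/Δ and 2 only in p38α+/+ LT-HSCs. Genes measured on only 1 array entered through the array where they were high, so nothing is read from the count and median. Btla, an inhibitory receptor, was measured only on the array labelled p38αΔ/Δ, at least 4.59-fold above the limit of the other. Tigit was likewise measured only there, at least 3.71-fold higher, and both count among the 4 higher genes. Cd48, the ligand of CD2, differed by 1.37, Cd28 by 1.02 and Cd6 by 0.90. The second Cd48 feature differed by 0.19 and the second Cd6 feature by -0.00. The gene lower by 2-fold or more was Cd86, a ligand of CD28, measured only in p38α+/+ LT-HSCs and at least 2.87-fold lower on the other array. Of genes measured on both arrays, Cd27 differed by -0.42, Tnfrsf18 by -0.39 and Cd5 by -0.03.

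Of 17 cytokine receptor and homing genes, 2 were 2-fold lower and 2 higher. Il7, the ligand of IL7R, was well above background only in p38α+/+ LT-HSCs and at least 4.26-fold lower on the other. The chemokine receptor Ccr9 differed by -1.43, S1pr1 by -0.84 and Jak3 by -0.63. Crlf2, a receptor that pairs with IL7R, differed by 1.45 and Il4ra by 0.35. The second Jak3 feature differed by 0.11 and the second Il4ra feature by -1.33.

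Genes of T lineage transcription and receptor rearrangement gave 1 lower and 2 higher of 18. Ets1 differed by -1.04, Tox by -0.85 and the Notch target Hes1 by -0.79. Satb1 differed by 1.24, Dntt, the enzyme that adds bases at receptor joints, by 1.02 and Tbx21 by 0.80. A second Ets1 feature differed by 0.44.

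**Figure D5:**
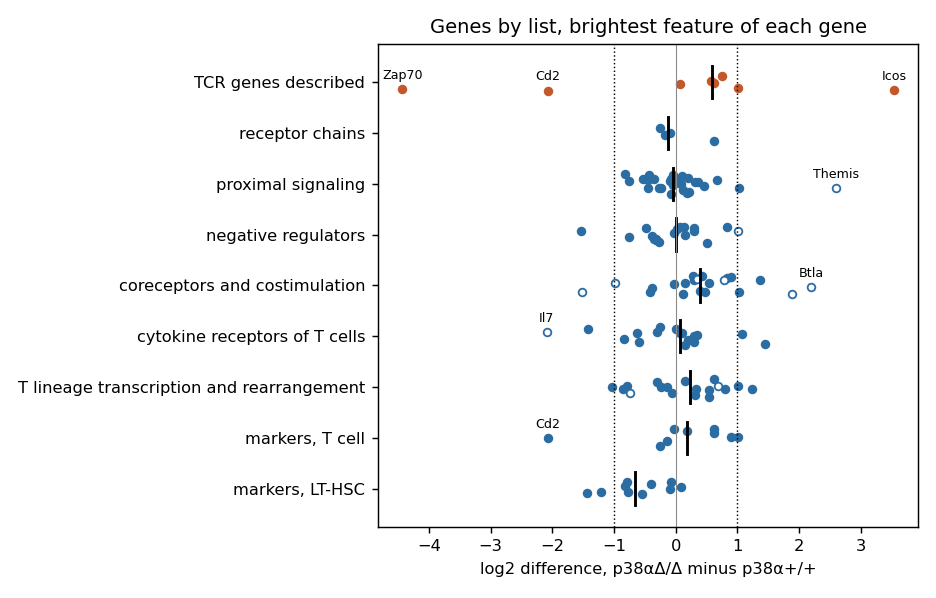
Log2 difference (p38αΔ/Δ minus p38α+/+) of each gene at its brightest feature, by list; open circles are bounds for genes well above background on only 1 array, bars are medians, dotted lines mark 2-fold, and Cd3d and Cd3g are absent because they were too dim. The TCR genes spread from -4.43 to 3.54, whereas the 6 pathway lists have medians between -0.13 and 0.39.

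Marker lists of LT-HSCs and of other blood cell types were set beside these values, although the lineage antibodies would remove cells with B cell or myeloid surface proteins. Of 11 T cell markers on the array, 9 were well above background, with scaled levels from -2.71 to 1.79 in p38α+/+ LT-HSCs and -3.98 to 1.53 on the array labelled p38αΔ/Δ. Their summed signal, relative to the 75th percentile, was 7.26 and 8.24 and the median log2 difference 0.19. The defining chains Cd3d and Cd3g were among those not well above background. Natural killer markers summed to 18.6 and 23.1 (10 of 12 measured), B cell markers to 2.69 and 17.6 (8 of 8) and myeloid markers to 36.3 and 55.0 (9 of 9). The median log2 difference was 0.17 for natural killer, 0.75 for B cell and 1.18 for myeloid markers. It was also positive for dendritic (0.22), erythroid (0.50) and platelet lineage (0.39) markers. The platelet median was -0.003 where all features of a gene were averaged. All 8 B cell markers were higher on the array labelled p38αΔ/Δ, where 13644 of all 26506 genes were higher. Of these 8, 5 were measured on both arrays, and Cd79b differed by only 0.09. Blk, Ebf1 and Ms4a1 were well above background only on the array labelled p38αΔ/Δ, so they entered through that array and their differences are bounds. Of the 9 myeloid markers, 6 were higher by 2-fold or more (5.51% of all genes), among them the granule genes Ltf (2.23), S100a9 (2.01), Ngp (1.99) and S100a8 (1.63). Elane (-1.41) and Lyz2 (-0.96) were lower. The B cell sum rested on Igj (Jchain), which differed by 3.75. Nkg7 (scaled levels 3.54 and 3.86) made up the largest part of the natural killer sums, and Csf1r (4.85 and 5.07) of the myeloid sums. A dimmer Csf1r feature differed by 0.76. Another, measured only in p38α+/+ LT-HSCs, went the other way, with a bound of -2.28. LT-HSC markers, all 10 of them measured, summed to 143 and 114, with a median difference of -0.66. On the array labelled p38αΔ/Δ, 9 of the 10 were lower, against 12862 of all 26506 genes. Kit, Hlf and Procr were well above background on both arrays, with differences of -0.09, -0.79 and -1.22, and Mecom differed by -1.44. Dimmer Mecom features differed by -0.10 and 0.61. The part of these shifts in the values of the TCR genes was not tested.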

How the data were processed

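RNA of sorted LT-HSCs was hybridised to 1 single-colour Agilent array per group, both on the same slide. Per the labels the authors used Feature Extraction 11.5.1.1, and the deposited scanner files hold intensity values (background-subtracted processed signals) with outlier and background flags. A table of deposited log2 values equals these signals minus a constant of 7.16 and 6.84 (within 0.01), for 35795 features. Here, flagged and control spots were removed, spots of a feature averaged, the log2 signal centred on each array's 75th percentile (7.16 and 6.85), and the brightest feature above background on at least 1 array taken for each gene. Where 1 array was too dim, its value was replaced by the dimmest reliable signal there (-4.65 and -4.78), which gives the "at least" folds. The difference between single spots had an SD of 0.13 over 276 repeated features. Scanner error is the Feature Extraction signal error, converted to log2 units. Members and lists were chosen with earlier results of these data known. Named pathway genes were the 3 with the largest differences in each direction per list, of genes measured on both arrays, plus bounds of at least 4-fold. Lat, Sit1, Cd86, Tigit and second features were added after their values were seen. Some genes that this rule names are not reported here. The steps were tested on simulated data. Python 3.11.15, pandas 2.3.3 and, for normexp, limma 3.58.1 were used. Alternatives are given in the closing section. With 2 arrays, their number limits the precision.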

Additional observations from a re-analysis of the deposited data

How the results depend on the processing

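Zap70 (start 1939) stayed lower and Icos (start 3194) higher by at least 2-fold under all alternatives run on single features (-4.46 to -2.13 and 1.22 to 3.56). Cd2 (start 627) ranged from -2.18 to -0.38, Cd3e from 0.73 to 1.08 and Cd8a (start 2875) from 0.24 to 0.59. With normexp background correction (offset 50), 1 of the TCR genes was at least 2-fold lower and 1 higher, their median was 0.36, and of the other pathway genes 1 was lower and 1 higher. Normexp adds an offset that compresses dim signals, and over all genes 0.758% were then lower and 0.736% higher. With the median pixel signal, 1 TCR gene and 7 pathway genes were higher, against 4.54% of all genes. With the deposited values, and with features kept only if above background on both arrays, 3 pathway genes were lower and 7 higher, since fewer genes entered (94 of 105). Over all genes, 4.58% were lower and 4.55% higher with the deposited values, and 4.62% and 4.50% with that filter. Without a filter, the median of the TCR genes was 0.32, because Cd3d and Cd3g entered at the floor. In all, 60 of 72 recomputed counts and medians stayed within 1.5 times or the spot error, and no called direction reversed. The T cell marker median was -0.03 without a filter, and the LT-HSC marker median -0.47 with normexp and -0.42 where all features of a gene were averaged. No paired analysis was possible because each group had 1 array. Signal near background limits Icos on the p38α+/+ array, Cd2 on the array labelled p38αΔ/Δ, Cd8a on both, and leaves Cd3d and Cd3g unmeasured.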

Other observations

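Gamma chain loci were not in the lists and were looked at after their values were seen. Tcrg-V1, a feature named for a TCR gamma variable gene, read 41.8 in p38α+/+ LT-HSCs and 97.5 on the array labelled p38αΔ/Δ, or -1.78 and -0.24 after scaling, a log2 difference of 1.54. Trgv2 read 12.7 and 11.9, a scaled difference of 0.22. Among natural killer and innate lymphoid markers, 7 of 10 measured genes were higher and 3 lower on the array labelled p38αΔ/Δ, where 13644 of all 26506 genes were higher. Only Gzmb reached 2-fold, and Eomes (0.06), Klre1 (0.16) and Il1rl1 (0.19) were close to 0. The granzyme genes Gzmb and Gzma differed by 1.15 and 0.89 and the perforin gene Prf1 by 0.54, whereas Klrb1c (NK1.1) differed by -0.53.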
